A study of Mus musculus with 8 samples.

Results

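The pre-B cell receptor components are 6 genes, Igll1, Vpreb1, Vpreb3, Cd79a, Cd79b and Blnk, of 12393 genes that could be followed in expression arrays of mouse blood-forming cells. They were chosen by name, with earlier results of these data known, as were the gene lists used below. Every probe set annotated to one of these symbols alone was taken, 7 in all, and the brightest by its mean over the 8 arrays gave the value of the gene. A further probe set annotated to both Vpreb1 and Vpreb2 was left out.

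The arrays held sorted bone marrow cells of C57/BL6 mice in 3 groups. Ezh2 KO leukaemia-initiating cells (LICs; 2 arrays) were labelled as knocked out for Ezh2, a histone methyltransferase of the Polycomb group that keeps developmental genes silent. They were GFP+, lineage-negative, Sca1+ and Kit+ cells, taken 14 days after transplantation from mice with a chronic myeloid leukaemia induced by retrovirus. WT LICs (3 arrays) came from the same model and gate with Ezh2 intact. LSK cells (3 arrays) were lineage-negative, Sca1+ and Kit+ marrow cells of mice 12 weeks old, titled WT HSC, with no transplantation given, so transplantation, infection and leukaemia cannot be told apart in the comparisons with LSK cells. The labels give the age of 12 weeks for the LIC samples too. The way in which Ezh2 was deleted, the oncogene carried by the retrovirus and any pooling of animals were not stated in the labels. The repeats are called biological, and nothing says whether each came from a separate animal, so the p-values measure the spread between these samples.

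The pre-B cell receptor is the checkpoint receptor of early B cells. It pairs an immunoglobulin heavy chain with a surrogate light chain made of the products of Igll1 (lambda5) and Vpreb1, and it signals through the Cd79a and Cd79b chains (Ig-alpha and Ig-beta), whose tyrosine motifs recruit the kinase Syk. Blnk is the adaptor that Syk phosphorylates and that links the receptor to Btk and phospholipase C. Vpreb3 is related to the surrogate light chain and associates with heavy chains early in their assembly. In normal bone marrow the surrogate light chain genes are switched on in pro-B cells and switched off after the pre-B cell stage.

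The members lie on 5 chromosomes: Igll1 and Vpreb1 on 16, Vpreb3 on 10, Cd79a on 7, Cd79b on 11 and Blnk on 19. The promoter windows of the 4 members that rose in Ezh2 KO LICs over WT LICs, from 250 bases before to 50 after the annotated start, are shown because these genes moved together; they are RefSeq sequences of GRCm38.p6, 5′ to 3′, and capitals mark matches to the motifs described after them.
Igll1, chr16:16863936-16864235 on the minus strand: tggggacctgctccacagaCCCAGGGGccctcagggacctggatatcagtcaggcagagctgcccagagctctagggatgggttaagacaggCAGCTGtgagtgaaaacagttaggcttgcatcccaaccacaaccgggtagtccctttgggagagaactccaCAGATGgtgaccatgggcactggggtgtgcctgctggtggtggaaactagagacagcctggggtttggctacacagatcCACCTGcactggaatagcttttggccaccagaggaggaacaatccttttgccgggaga
Vpreb3, chr10:75948050-75948349 on the plus strand: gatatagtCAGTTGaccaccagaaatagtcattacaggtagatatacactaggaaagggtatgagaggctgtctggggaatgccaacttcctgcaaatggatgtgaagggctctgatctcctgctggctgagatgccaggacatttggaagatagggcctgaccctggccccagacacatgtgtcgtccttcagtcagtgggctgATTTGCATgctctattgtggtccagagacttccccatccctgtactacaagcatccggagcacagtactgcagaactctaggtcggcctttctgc
Cd79a, chr7:24897247-24897546 on the plus strand: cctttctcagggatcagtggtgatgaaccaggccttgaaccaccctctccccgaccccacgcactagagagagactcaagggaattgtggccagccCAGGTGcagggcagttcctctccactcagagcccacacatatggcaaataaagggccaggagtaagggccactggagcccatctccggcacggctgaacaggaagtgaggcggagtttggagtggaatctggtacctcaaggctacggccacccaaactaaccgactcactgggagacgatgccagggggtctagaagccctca
Blnk, chr19:40994172-40994471 on the minus strand: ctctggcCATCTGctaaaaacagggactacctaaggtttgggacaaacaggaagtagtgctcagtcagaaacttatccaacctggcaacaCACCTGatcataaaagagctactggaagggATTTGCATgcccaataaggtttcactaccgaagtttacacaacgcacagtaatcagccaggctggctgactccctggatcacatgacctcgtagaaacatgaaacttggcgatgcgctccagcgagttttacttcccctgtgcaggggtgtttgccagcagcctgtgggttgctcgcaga

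The motifs searched on both strands were the early B cell factor (EBF) core CCCNNGGG, the EBF full site, which is that core with a T before and an A after it, the E-box CAGNTG read by E proteins, and the octamer ATGCAAAT, to which OCT factors and their coactivator Pou2af1 bind. The octamer was found, as its reverse complement, in Vpreb3 at -45 to -38 and in Blnk at -130 to -123 from the start, against 1.74% of 32851 windows of the same length over all genes. Igll1 held an EBF core at -231 to -224, which 13.7% of windows hold, and none of the 5 members with a window held the full site, which 0.904% of windows hold. E-boxes were present in each of those 5 windows, 3 of them in Igll1, against 51.4% of all windows. The start of Vpreb1 lies 5270 bases from that of Igll1 on the same strand of chromosome 16, and its window held 1 E-box, at -88 to -83. Cd79b had no entry in the promoter table. A match describes letters in these windows and not a bound site.

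Values are log2 of the deposited intensity, which depends on the probe set as well as on the RNA, so levels are compared between groups and not between genes. The median of an array lay between 6.42 and 6.57, and the background level was taken as 4.01, the highest mean among 27 bacterial control probe sets. Ezh2 itself was at 8.94 and 9.55 on the Ezh2 KO LIC arrays, against 11.34 ± 0.09 in WT LICs and 10.93 ± 0.15 in LSK cells (SD, n = 3 each), and it fell by 2.10 against WT LICs (adjusted p = 0.00985, and 0.055 in a fit of the LIC arrays alone). Whether its probe set lies in the deleted part of the gene is not known. One array stood apart: WT LIC replicate 3 had Xist at 4.35, against 10.68 and 11.06 on the other WT LIC arrays, and Dntt at 12.14 against 9.89 and 9.58. The Y-linked Eif2s3y was between 9.21 and 9.80 on the 5 LIC arrays and between 1.29 and 1.63 on the LSK arrays. In comparisons with LSK cells a difference in sex thus cannot be told apart from one in group. Xist was at 10.69 and 11.18 in Ezh2 KO LICs, so every LIC array but WT LIC replicate 3 was high in both genes. The mix of sexes may thus differ between the LIC groups too, and its part was not tested. Results are given below with all arrays, and the counts of members called also without WT LIC replicate 3.

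The first comparison asked how Ezh2 KO LICs differ from WT LICs in these genes. All 6 members were brighter on both Ezh2 KO LIC arrays than on any WT LIC array, whereas 13.2% of all genes were higher and 16.6% lower without overlap. Igll1, Vpreb3, Cd79a and Blnk rose, that is 4 of 6 members at a Benjamini-Hochberg adjusted p under 0.05 (limma), beside 0.589% of all genes called higher and 0.0484% called lower. Vpreb1 and Cd79b did not pass. The median difference of the 6 members was 3.93 on the log2 scale, beside -0.05 for all genes, and the count of called members was also 4 without WT LIC replicate 3. Blnk was the 1 of the 4 whose call was lost when single arrays were left out, as given with its values.

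**Figure D1:**
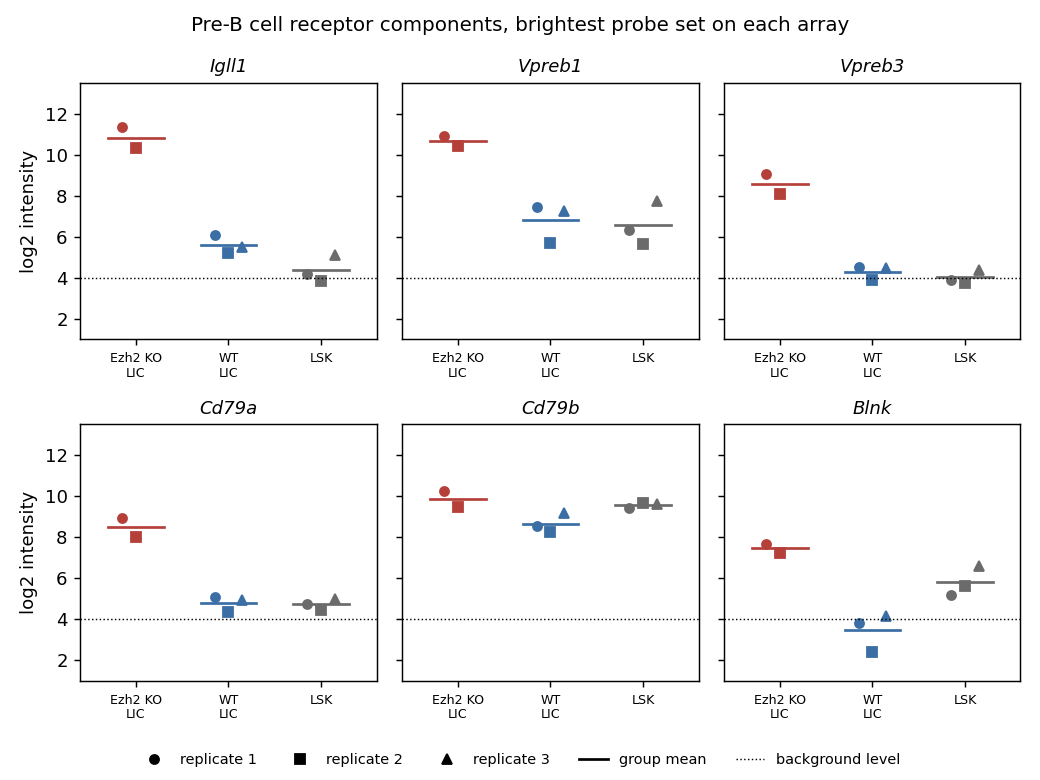
Log2 intensity of the 6 members (vertical axis) on each array of Ezh2 KO LICs (2 arrays), WT LICs and LSK cells (3 arrays each). Symbols give the replicate number, bars the group mean and the dotted line the background level of 4.01. Both Ezh2 KO LIC arrays lie above every WT LIC array in each panel, and Cd79b is bright in all 3 groups.

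Of the surrogate light chain, Igll1 by its brightest probe set was at 11.36 and 10.31 in Ezh2 KO LICs, against 6.09, 5.21 and 5.52 in WT LICs and 4.19, 3.83 and 5.11 in LSK cells. The lowest knockout array lay 4.22 above the highest WT LIC array. The rise was 5.23 over WT LICs (SE 0.47, 95% confidence interval 4.13 to 6.33, adjusted p = 0.00753) and 6.46 over LSK cells (SE 0.47, adjusted p = 0.00143). The probe set that gave these values carries the suffix _x_at, with which the maker marks sets that may also hybridise to related sequences. The other Igll1 probe set was dimmer, at 6.58 and 5.41 in Ezh2 KO LICs, 4.06, 4.04 and 4.44 in WT LICs, and 4.74, 7.41 and 4.37 in LSK cells. On it both knockout arrays again exceeded the WT LIC arrays, by a mean of 1.82, but LSK replicate 2 was brighter than either. On this dimmer probe set the mean difference of Ezh2 KO LICs from LSK cells was 0.49. With the mean of both probe sets the rise was 3.52 over WT LICs (adjusted p = 0.0146) and 3.47 over LSK cells (0.00845), so the size of the Igll1 difference depended on the probe set.

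Vpreb1, the other chain of the surrogate light chain, was at 10.90 and 10.40 in Ezh2 KO LICs, against 7.46, 5.68 and 7.26 in WT LICs and 6.33, 5.66 and 7.75 in LSK cells. The groups of LICs did not overlap, but WT LICs and LSK cells were each spread by an SD of about 1, at 0.97 and 1.07. The difference from WT LICs was 3.85 (SE 0.71, interval 2.20 to 5.50) and did not pass the test (adjusted p = 0.0852). It passed with a trended robust prior (adjusted p = 0.047), and over the alternatives its adjusted p ranged from 0.0368 to 0.281. Against LSK cells Vpreb1 rose by 4.07 (SE 0.71, adjusted p = 0.0286), a call that was lost without Ezh2 KO LIC replicate 1 (adjusted p = 0.141) or 2 (0.116) and without LSK replicate 1 (0.0783) or 2 (0.0669).

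Vpreb3, the heavy chain companion, was at 9.07 and 8.09 in Ezh2 KO LICs, against 4.52, 3.89 and 4.46 in WT LICs and 3.90, 3.74 and 4.40 in LSK cells. It was thus near or under background in WT LICs and LSK cells and clearly above it in the knockout. It rose by 4.29 over WT LICs (SE 0.35, adjusted p = 0.00753) and by 4.56 over LSK cells (SE 0.35, adjusted p = 0.00168). With levels this close to background these sizes depend on the scale: with a pseudocount of 16 they were 3.48 and 3.63.

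Of the signalling chains, Cd79a was called in Ezh2 KO LICs and Cd79b was not. Cd79a was at 8.95 and 8.03 in Ezh2 KO LICs, against 5.08, 4.37 and 4.94 in WT LICs and 4.75, 4.44 and 5.0 in LSK cells. It rose 12.9-fold over WT LICs, by 3.69 (SE 0.34, adjusted p = 0.00753), and by 3.76 over LSK cells (SE 0.34, adjusted p = 0.00316). Its partner Cd79b was well above background everywhere, at 10.24 and 9.47 in Ezh2 KO LICs, 8.56, 8.27 and 9.17 in WT LICs, and 9.41, 9.68 and 9.61 in LSK cells. The lowest knockout array of Cd79b was 0.30 above the highest WT LIC array and lay within the range of LSK cells. Cd79b differed by 1.18 from WT LICs (SE 0.32, interval 0.44 to 1.92, adjusted p = 0.22) and by 0.28 from LSK cells (interval -0.46 to 1.02, adjusted p = 0.688). The interval for Cd79a against WT LICs was 2.90 to 4.47. Whether the difference of Cd79a is larger than that of Cd79b was not tested.

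Blnk, the adaptor, was at 7.68 and 7.25 in Ezh2 KO LICs, against 3.81, 2.39 and 4.18 in WT LICs and 5.16, 5.61 and 6.61 in LSK cells. The 3 groups did not overlap, and WT LICs were the lowest, with a mean under background. Its rise in Ezh2 KO over WT LICs was 11-fold or more, taken against the background level (adjusted p = 0.0351). That call was lost in the fit of the LIC arrays alone (adjusted p = 0.0901), without Ezh2 KO LIC replicate 1 (0.143) or 2 (0.153), without WT LIC replicate 1 (0.103) or 2 (0.0583) and without LSK replicate 1 (0.0524) or 2 (0.0807). Over LSK cells the difference of Blnk was 1.67 (SE 0.59, interval 0.29 to 3.05) and did not pass (adjusted p = 0.176).

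Ezh2 KO LICs were also set against LSK cells, with the same knockout arrays. Igll1, Vpreb1, Vpreb3 and Cd79a rose, 4 of 6 members, beside 1.61% of all genes called higher and 1.86% called lower, and 4 were called also without WT LIC replicate 3. Cd79b and Blnk did not pass. The Ezh2 KO LIC arrays exceeded every LSK array in 5 of 6 members, the exception being Cd79b, beside 18.2% of all genes; 20.5% of all genes were lower without overlap and none of the members was.

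The remaining comparison asked how WT LICs differ from LSK cells in these genes. None of the 6 members passed the test (limma), beside 3.42% of all genes called in either direction (1.27% higher, 2.15% lower); 3 had an unadjusted p under 0.05. Igll1 was higher by 1.23 in WT LICs (SE 0.42, adjusted p = 0.159), and this difference was -0.05 with the mean of its probe sets. Cd79b differed by -0.90 (SE 0.28, adjusted p = 0.133), with every WT LIC array under every LSK array, as was so for 13.2% of all genes. Blnk also lay lower on every WT LIC array, with an adjusted p of 0.0601, and it was called without WT LIC replicate 3 (adjusted p = 0.0428) and with a trended robust prior (0.0395). Vpreb1, Vpreb3 and Cd79a differed by 0.22, 0.27 and 0.07, within the spread between arrays. The signs of Vpreb1 and Cd79a turned when single arrays were left out, WT LIC replicate 3 among them.

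**Figure D2:**
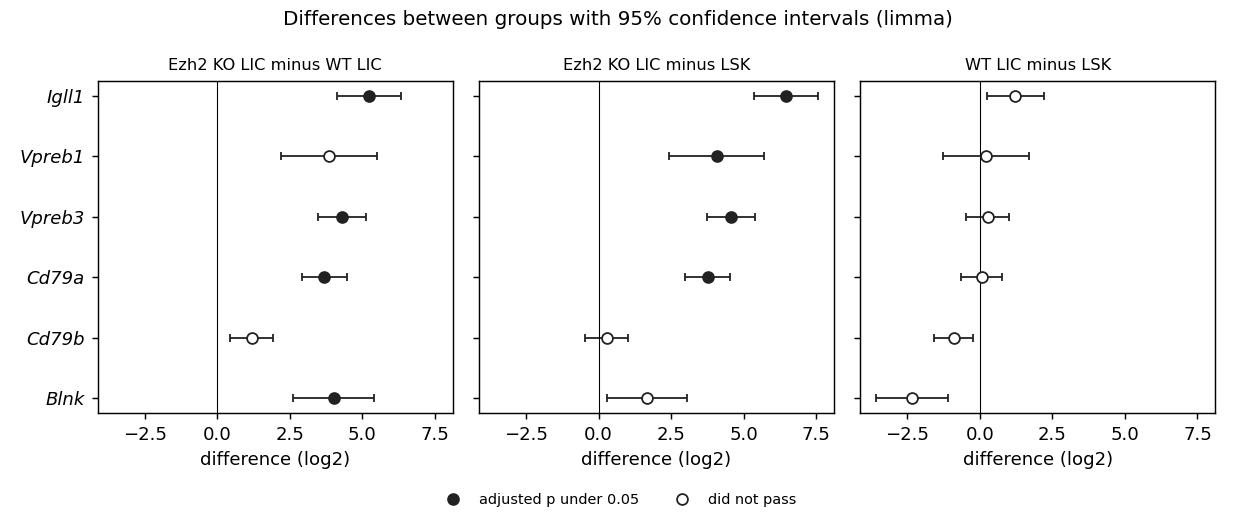
Differences on the log2 scale (horizontal axis) between groups for the 6 members, with 95% confidence intervals from limma, for Ezh2 KO LICs minus WT LICs, Ezh2 KO LICs minus LSK and WT LICs minus LSK. Filled points passed the test over all genes: 4 members in each comparison with Ezh2 KO LICs and none between WT LICs and LSK cells.

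The members moved together from array to array within a group as well. Ezh2 KO LIC replicate 1 was brighter than replicate 2 in 6 of 6 members, by between 0.43 for Blnk and 1.05 for Igll1, while 51.5% of all genes were brighter on replicate 1. WT LIC replicate 2 was the lowest of its group in 6 of 6 members, beside 28.8% of all genes. LSK replicate 3 was the highest of its group in 5 of 6 members, all but Cd79b, beside 26.6% of all genes. As these are sorted bulk populations, a different number of receptor-expressing cells and a different amount of RNA per cell cannot be told apart. Members measured on the same array share its RNA, so these counts describe 8 arrays and are given with no test.

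Ighm, the mu heavy chain that completes the receptor, was at 8.77 and 7.65 in Ezh2 KO LICs, against 6.96, 7.77 and 7.80 in WT LICs and 12.33, 11.63 and 11.98 in LSK cells. The LIC groups overlapped, with a difference of 0.71 (SE 0.41, interval -0.24 to 1.65, adjusted p = 0.559). Against LSK cells Ighm fell by 3.77 in Ezh2 KO LICs (adjusted p = 0.00711), a call that was lost with the mean of all its probe sets (adjusted p = 0.147). The same alternative reduced the difference between the means to -0.54, and that of WT LICs from LSK cells, -4.47, to -0.70 (adjusted p = 0.0552).

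Ighm also belongs to the list of antibody-secreting cells, plasmablasts and plasma cells, which no longer make the surrogate light chain. The summed intensity of 11 such genes lay between 3166 and 4287 in Ezh2 KO LICs and between 2864 and 3603 in WT LICs, against 13899 to 19003 in LSK cells. Sums here and below add linear intensities, so the brightest probe sets of a list weigh most and a sum does not measure a number of cells. Without Ighm, a choice made after seeing the data, it was 2964 to 3850 in Ezh2 KO LICs and 2646 to 3380 in WT LICs, against 10736 to 13842 in LSK cells. Of the 11 genes, 4 fell and none rose in Ezh2 KO LICs against LSK cells, namely Jchain, Igk, Ighm and Tnfrsf17, beside 3.47% of all genes called in either direction. Tnfrsf17 had a mean of 3.75 in Ezh2 KO LICs, under background. Its call (adjusted p = 0.0463, limma) was lost under 12 of 15 alternatives, median centring among them. In WT LICs against LSK cells Jchain, Igk and Ighm fell, and 1 gene, Creld2, a chaperone of the endoplasmic reticulum, rose by 0.96 (adjusted p = 0.0363). Creld2 lost this call under 6 of 16 alternatives, that is without any 1 LSK or WT LIC array. Igk, the kappa light chain, averaged 3.78 in Ezh2 KO LICs and 3.57 in WT LICs, both under background, against 12.74 in LSK cells. With the mean of all Igk probe sets the difference from LSK cells was -2.40 in Ezh2 KO LICs (adjusted p = 0.00399) and -2.44 in WT LICs (0.00217). Of these 11 genes, none was called between Ezh2 KO and WT LICs (limma; 3 with an unadjusted p under 0.05), beside 0.637% of all genes called in either direction. In LSK cells Derl3 was the 1 gene of the list with a mean under background. The part of such cells in the LSK values of Cd79b and Blnk was not tested.

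Of the kinases and adaptors that act below the receptor, few were called. Of 29 listed signalling genes 22 were measured. None of them was called between Ezh2 KO and WT LICs (limma, 4 with an unadjusted p under 0.05), with a median difference of 0.18. Without overlap 6 were higher and 5 lower in Ezh2 KO LICs, beside 13.2% and 16.6% of all genes. The means of Blk, Plcg1, Vav2 and Rasgrp1 were under background in both LIC groups. Syk, the kinase that the Cd79 chains recruit, was at 9.45 and 9.35 in Ezh2 KO LICs, against 9.33, 9.31 and 9.58 in WT LICs and 9.64, 9.93 and 9.78 in LSK cells. Btk was between 10.02 and 10.06 in Ezh2 KO LICs, against 10.08 to 10.42 in WT LICs and 10.12 to 10.45 in LSK cells. Both kinases were well above background in every group, and differed between the LIC groups by -0.01 (interval -0.39 to 0.37) for Syk and -0.17 (interval -0.57 to 0.23) for Btk. The smallest p of the list was that of Fyn, a Src-family kinase, at 10.78 in Ezh2 KO LICs and 9.47 in WT LICs (difference 1.31, SE 0.25, adjusted p = 0.0999). Against LSK cells 1 of the 22 was called, beside 3.47% of all genes: Sh3bp2, an adaptor of Syk signalling, which fell by 1.31 in Ezh2 KO LICs (adjusted p = 0.0354) and lost its call under 8 of 16 alternatives.

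Of 13 measured inhibitors of antigen receptor signalling, 1 was called between Ezh2 KO and WT LICs, beside 0.637% of all genes in either direction. The median difference of the list was -0.13 beside -0.05 for all genes. The gene called was Ptpn22, a phosphatase acting on Src- and Syk-family kinases in lymphocytes. It was at 5.79 and 5.30 in Ezh2 KO LICs, against 7.83, 7.53 and 8.82 in WT LICs and 9.35, 8.65 and 9.05 in LSK cells. It fell by 2.52 against WT LICs (adjusted p = 0.0497), a call lost under 12 of 16 alternatives (adjusted p up to 0.277) and among them without any 1 array but WT LIC replicate 3. Against LSK cells it fell by 3.47 (adjusted p = 0.00875), with the call lost without Ezh2 KO LIC replicate 2 (0.0581). The other 12 did not pass between the LIC groups.

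Regulators of the early B cell programme were measured alongside. Of 15 transcription factors, 2 rose in Ezh2 KO over WT LICs and none fell, beside 0.589% of all genes higher and 0.0484% lower, with a median difference of 0.40 beside -0.05 for all genes. Pou2af1, the coactivator of octamer factors, was at 9.54 and 9.31 in Ezh2 KO LICs, against 4.61, 3.03 and 3.04 in WT LICs and 5.01, 6.54 and 6.05 in LSK cells, so that, as for Blnk, LSK cells lay between the LIC groups. Its rise over WT LICs was 42.6-fold or more against background (adjusted p = 0.00985), and the call was lost without Ezh2 KO LIC replicate 2 (0.0551). Spib, an ETS factor of B and plasmacytoid dendritic cells, was at 6.54 and 7.42 in Ezh2 KO LICs and under background on every other array, a rise over WT LICs of 7.82-fold or more (adjusted p = 0.00753). It was the knockout array with the lower members, replicate 2, that had the more Spib.

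Ebf1, which activates the surrogate light chain and Cd79 genes in B cell progenitors, was at 9.23 and 8.80 in Ezh2 KO LICs, against 7.06, 2.70 and 5.74 in WT LICs and 2.84, 4.84 and 6.23 in LSK cells. The knockout arrays were the highest, but with an SD of 2.24 over WT LICs the difference of 3.85 did not pass (SE 1.34, adjusted p = 0.361). WT LIC replicate 2 was the lowest of its group for Ebf1, as it was for the 6 members. Pax5, the commitment factor of the B lineage, was under background on all 8 arrays, between 2.32 and 2.78.

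Of 8 measured genes of receptor gene rearrangement, 5 had a lower mean in Ezh2 KO than in WT LICs. These were Xrcc4, Xrcc5, Xrcc6, Prkdc and Nhej1, and the median difference of the list was -0.02 beside -0.05 for all genes. Rag1 was the 1 called between the LIC groups, beside 0.589% of all genes higher and 0.0484% lower. It was at 9.31 and 9.18 in Ezh2 KO LICs, against 3.82, 4.11 and 4.02 in WT LICs and 3.81, 4.46 and 5.90 in LSK cells. Its rise over WT LICs was 37.7-fold or more against background (adjusted p = 0.00985), and the call was lost without WT LIC replicate 1 (0.0509) or Ezh2 KO LIC replicate 2 (0.0581). Its partner Rag2 was at 6.26 and 6.10 in Ezh2 KO LICs, against 2.92, 2.62 and 5.72 in WT LICs and 5.57, 5.14 and 6.26 in LSK cells (adjusted p = 0.366 between the LIC groups). Dntt, the terminal transferase, was at 11.98 and 11.92 in Ezh2 KO LICs, against the WT LIC values given above and 12.32, 12.31 and 12.63 in LSK cells. For Dntt and Rag2, LSK cells and WT LIC replicate 3 were close to the knockout.

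**Figure D3:**
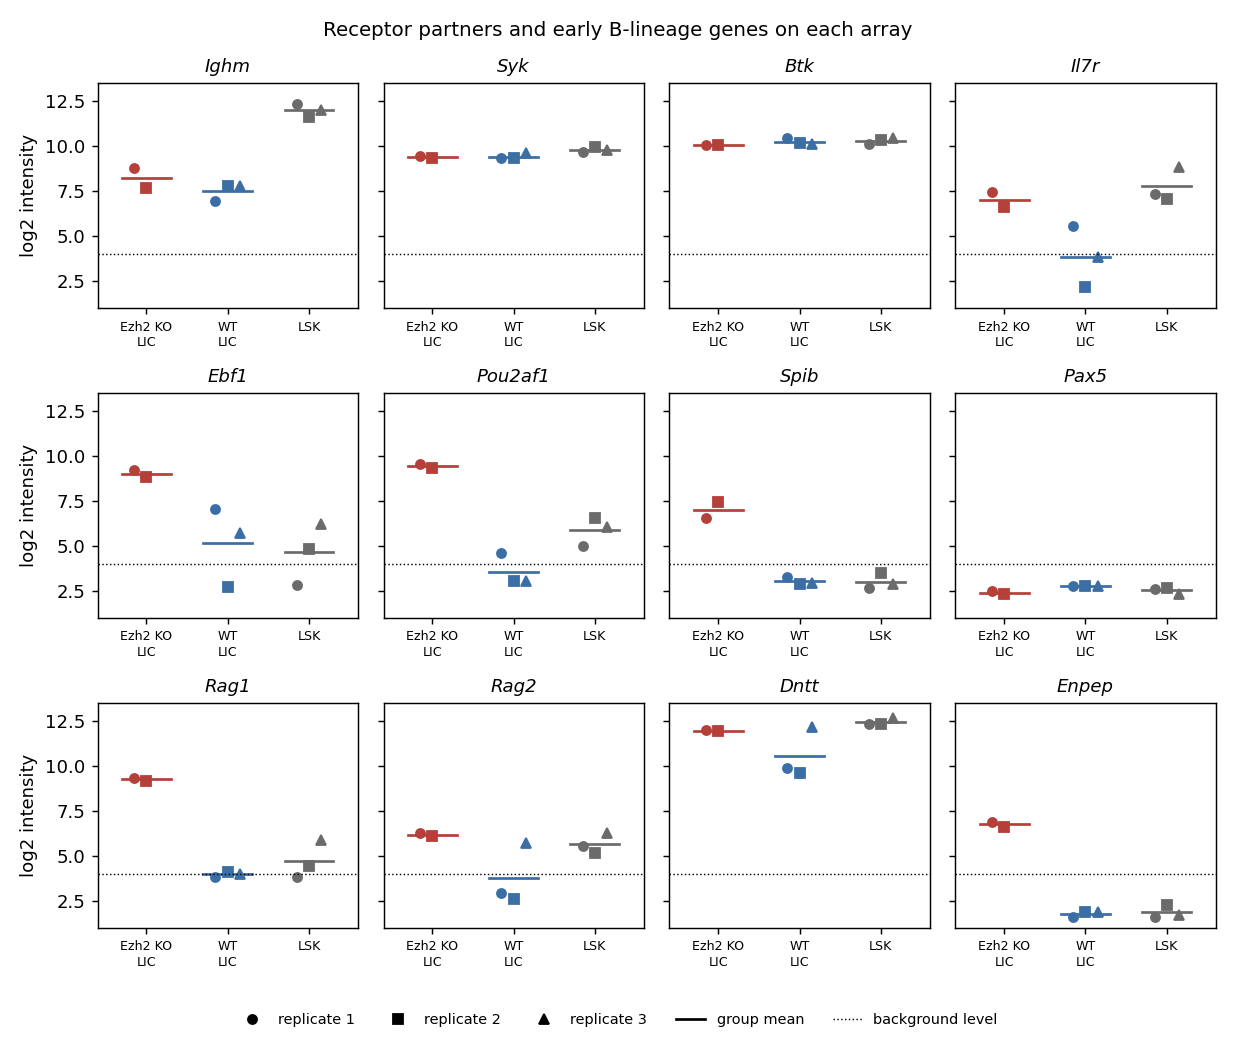
Log2 intensity (vertical axis) on each array for the heavy chain Ighm, the kinases Syk and Btk, the interleukin-7 receptor Il7r, 4 regulators, 3 rearrangement genes and the surface enzyme Enpep, in Ezh2 KO LICs, WT LICs and LSK cells. Symbols give the replicate, bars the mean and the dotted line background. Enpep, Rag1, Pou2af1, Spib and Ebf1 are higher on both Ezh2 KO LIC arrays than on every other array. Ighm separates LSK cells from the LICs, and Syk and Btk vary little between arrays.

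Of 10 measured surface markers of B cell progenitors, Enpep and Ly6d rose in Ezh2 KO over WT LICs and none fell. Over all genes 0.589% were called higher and 0.0484% lower. The median difference was 0.36 beside -0.05 for all genes, and 3 were negative, Cd24a (-0.33), Spn (-0.32) and Cd2 (-0.14). Against LSK cells 3 were called higher, beside 1.61% of all genes, but 6 differences were negative, with a median of -0.28. There 5 were lower without overlap, beside 20.5% of all genes. Enpep, the aminopeptidase known as BP-1 on pre-B cells, was at 6.90 and 6.59 in Ezh2 KO LICs and at most 2.25 on the WT LIC and LSK arrays, a rise over WT LICs of 6.65-fold or more (adjusted p = 0.000729). Ly6d was at 7.99 and 7.94 in Ezh2 KO LICs, against 4.92, 4.11 and 4.43 in WT LICs (adjusted p = 0.0256, with the call lost under 5 of 16 alternatives, each of them the loss of 1 array, up to 0.132). Il7r was at 7.45 and 6.58 in Ezh2 KO LICs, against 5.56, 2.18 and 3.80 in WT LICs and 7.32, 7.07 and 8.84 in LSK cells, and the LIC groups did not differ at the threshold (adjusted p = 0.28).

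Markers of other cells were measured to show what the sorted populations could also hold. None of 11 mature B cell genes was called between the LIC groups (limma; 2 with an unadjusted p under 0.05), and against LSK cells 1, Ighm, fell in both. Their summed intensity was 2483 to 2827 in Ezh2 KO LICs, against 1710 to 2238 in WT LICs and 5559 to 7240 in LSK cells. Without Ighm it was 2282 to 2390 in Ezh2 KO LICs, against 1586 to 2020 in WT LICs and 2079 to 2395 in LSK cells. Cd37 was the brightest of these other genes, with a mean of 10.72 in Ezh2 KO LICs, where 6 of the 11 means were under background. The means of Ms4a1, which encodes CD20, and of Cd22 were under background in each group. None of 12 T cell genes and none of 8 plasmacytoid dendritic cell genes was called, and none in either list had an unadjusted p under 0.05 between the LIC groups. Summed T cell intensity was 845 to 938 in Ezh2 KO LICs, 843 to 1298 in WT LICs and 600.0 to 805 in LSK cells, with Cd3g, Cd8a, Cd8b1, Cd28 and Bcl11b under background in each group. The brightest T cell genes in Ezh2 KO LICs were Lat and Thy1, with means of 8.77 and 8.19. Summed plasmacytoid dendritic cell intensity was 951 to 1612 in Ezh2 KO LICs, 1197 to 1298 in WT LICs and 997 to 1443 in LSK cells, with Klk1 under background in each. Bst2 was the brightest gene of that list, with a mean of 9.73 in Ezh2 KO LICs. Granulocyte genes were present in every group, with a summed intensity of 10034 to 18425 in Ezh2 KO LICs, 18596 to 21593 in WT LICs and 13732 to 15229 in LSK cells, and none of 10 was called between the LIC groups (1 with an unadjusted p under 0.05). Of 9 monocyte, 7 erythroid and 7 megakaryocyte genes none was called between the LIC groups either (0, 1 and 2 with an unadjusted p under 0.05), with median differences of 0.34, -1.45 and -0.31. Summed erythroid intensity was 4539 to 4982 in Ezh2 KO LICs, against 3492 to 16580 in WT LICs and 8954 to 9721 in LSK cells, and all 7 genes had a lower mean in Ezh2 KO than in WT LICs. WT LIC replicate 3 stood apart here too, with the carbonic anhydrase gene Car1 at 2.70, against 11.71 and 10.48 on the other WT LIC arrays. Summed monocyte intensity was 1923 to 2011 in Ezh2 KO LICs, against 1164 to 2583 in WT LICs and 4659 to 5078 in LSK cells, and summed megakaryocyte intensity was 476 to 557 in Ezh2 KO LICs, against 353 to 913 in WT LICs and 1487 to 2466 in LSK cells. The part of any of these cells in the members' values was not tested.

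**Figure D4:**
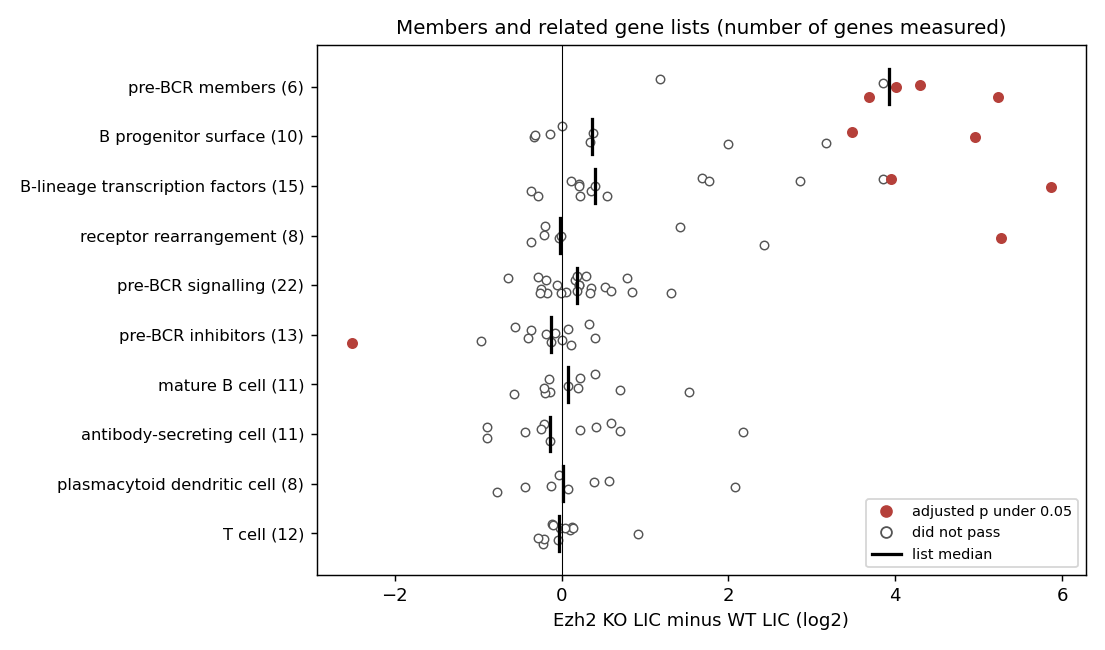
Difference of Ezh2 KO LICs minus WT LICs on the log2 scale (horizontal axis) for each measured gene of the members and 9 related lists; filled points passed the test over all genes and vertical bars are list medians. The members have a median of 3.93, while signalling genes lie around 0.18 with none called.

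Genes with the profile most like that of a member were found by the root-mean-square difference between log2 values centred on the mean of the 8 arrays, for the 5 members whose values spanned over 2. For Igll1 these were Mpzl2 (0.77), Enpep (0.90) and Igf2bp3 (0.97). For Vpreb1 they were Bmpr1a (0.66), Sorcs2 (0.68) and Tmeff1 (0.70). Vpreb3 was closest to Enpep (0.49), Alpl (0.55) and Tmeff1 (0.58), and Cd79a to Alpl (0.36), Sorcs2 (0.44) and Tmeff1 (0.55). Blnk was closest to Thbd (0.53), Bex1 (0.55) and Hspb8 (0.61), each of which was also lowest in WT LICs. Bex1, for example, was at 10.26 and 10.40 in Ezh2 KO LICs, against 6.65, 5.98 and 7.12 in WT LICs and 9.62, 9.25 and 9.78 in LSK cells. None of the 3 genes nearest to Blnk was among those nearest to another member.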

How the data were processed

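RNA of sorted cells was measured on 8 one-colour Affymetrix 3′ arrays. The authors deposited linear intensity values for 22690 probe sets, between 1.94 and 19343; RMA is the only tool in the submitters' processing notes, which give it no version, and no later step was stated. Log2 was taken with no pseudocount. Control probe sets (64), those with several symbols (691) and those not listed in the annotation (1555) were left out; of 20380 with 1 symbol, 20351 matched the RefSeq table of GRCm38.p6 by gene number. Each of 12393 genes had its brightest probe set as value, with no filter on dim genes.

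Group means were compared in one limma 3.58.1 fit (R 4.3.3, lmFit and eBayes) of all 8 arrays with group as the only term, leaving 5 residual degrees of freedom. P-values were 2-sided, Benjamini-Hochberg adjusted over all genes, and an adjusted p under 0.05 was a call. Where a group mean was at or under 4.01, a fold is a bound against that level, and its adjusted p is that of the fit. The fit was tested on simulated arrays with known changes. For Ezh2 KO against WT LICs it called 46.3% of changes of 1 on the log2 scale, 76.1% of 2 and 95.5% of 4. For Ezh2 KO LICs against LSK cells these were 34.3%, 77.6% and 89.4%, and for WT LICs against LSK cells 41.8%, 91% and 95.5%. A gene that did not pass may thus still differ. Precision is limited by having 2 or 3 arrays a group.

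The members, the gene lists and the rule for named genes were chosen with earlier results of these data known. The rule named the members, Ezh2, up to 4 genes of smallest p per list and comparison, a fixed set of receptor partners, and the 3 nearest profiles per member that spanned over 2; sample checks (Xist, Eif2s3y) and markers at background were named beside it. The labels state no batch, so a batch and the group cannot be told apart. The alternatives tried were median centring or quantile normalization, only genes above the 40th percentile of brightness, a pseudocount of 16, the mean of all probe sets of a gene, a trended robust prior, a fit of 2 groups at a time, a term for the repeat number and each array left out.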

Additional observations from a re-analysis of the deposited data

Results flagged for a closer look

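A probe set that entered no comparison, because it is annotated to both Vpreb2 and Vpreb1, gave a signal above that of the other groups. It was at 8.96 and 8.29 in Ezh2 KO LICs (mean 8.62), against 5.71, 5.08 and 6.27 in WT LICs (mean 5.69) and 5.04, 5.02 and 5.93 in LSK cells (mean 5.33). The knockout arrays did not overlap with the others; the value belongs to neither gene alone, and the difference was not tested.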

How the results depend on the processing

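Under the 15 or 16 alternatives run for each, Igll1, Vpreb3 and Cd79a kept their calls in both comparisons with Ezh2 KO LICs. The largest adjusted p was 0.0315, 0.0295 and 0.0415 against WT LICs. None of the alternatives took the dimmer Igll1 probe set alone, on which the mean difference of Ezh2 KO LICs from LSK cells was 0.49. Of the 6 members, Vpreb3 and Blnk did not pass the filter on dim genes and gave no value there, so 2 were called between the LIC groups. With single arrays left out, the called members numbered 3 to 4 in Ezh2 KO over WT LICs, 3 to 4 in Ezh2 KO LICs over LSK cells and 0 to 1 in WT LICs against LSK cells, where 1, Blnk, was also called with a trended robust prior. The 79 genes called between the LIC groups became 32 above the dim filter and 35 with the LIC arrays alone, 25, 37 and 146 without WT LIC replicate 1, 2 or 3, and 40 without Ezh2 KO LIC replicate 2 (range 25 to 146). For WT LICs against LSK the 424 genes became 176 to 209 without any 1 LSK array or WT LIC replicate 1 or 2, and 643 without WT LIC replicate 3. For Ezh2 KO LICs against LSK the 430 became 118 to 225 without any 1 knockout or LSK array, and 643 without WT LIC replicate 3. The causes were not tested. Median centring gave 300 genes higher and 215 lower in WT LICs against LSK, where the values as deposited gave 157 and 267, and 281 and 141 in Ezh2 KO LICs against LSK, where they gave 200 and 230.

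Whether arrays of the same replicate number deviated together was looked at over all genes. The correlation of their deviations from the group means was 0.14 and 0.02 between Ezh2 KO and WT LICs. That of 0.14, between the arrays numbered 1, was the highest of all pairs. With LSK cells the correlation was from -0.05 to -0.01, and no LSK array correlated best with its own number. The deviations of 2 Ezh2 KO LIC arrays mirror each other, so these values cannot decide whether LIC arrays were paired. With the replicate block 5 members were called between the LIC groups, Vpreb1 with them (adjusted p = 0.0368), 1, Blnk, in WT LICs against LSK (0.0444), and Pou2af1 was not called between the LIC groups (0.058). The block gave 36, 252 and 147 called genes for Ezh2 KO against WT LICs, WT LICs against LSK and Ezh2 KO LICs against LSK.

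Among the members, signs turned for 4 differences that had not passed, given here as log2 values. Igll1 in WT LICs against LSK was -0.048 with the mean of its probe sets. With single arrays left out, Vpreb1 in WT LICs against LSK ranged from -0.24 to 0.80, below 0 without LSK replicate 2 (-0.24), WT LIC replicate 1 (-0.11) or WT LIC replicate 3 (-0.01). Cd79a ranged there from -0.077 to 0.28, below 0 without the same arrays (-0.077, -0.07 and -0.0021). Cd79b in Ezh2 KO LICs against LSK ranged from -0.10 without Ezh2 KO LIC replicate 1 to 0.67 without replicate 2. With 1 knockout array left out, the other is assumed to vary like the other groups.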
